A study of Homo sapiens with 18 samples.

Results

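Cells depleted of ERCC5 were compared directly with cells depleted of ERCC6, with no control in the test. The comparison takes 6 of the 18 RNA libraries of the series, 3 of shERCC5 and 3 of shERCC6, and the 14570 of 22031 genes with at least 1 TPM in 3 or more of these 6 libraries. The cells are MCF-10A, a non-malignant human mammary epithelial line of basal character. Each line was made by lentiviral transduction with a single shRNA construct against its gene, and the other lines carried a non-target shRNA (shCTRL) or an shRNA against XPA, XPC or ERCC4. All lines, shCTRL included, were kept in puromycin until colonies resistant to it had formed, and the labels and methods name no ultraviolet light or other drug for the cells sequenced here. All libraries were made after removal of rRNA from 3 independent biological replicates of a line. With 1 construct and 1 line per gene, the gene targeted, the construct and the history of the line cannot be told apart, and a p-value measures the spread between replicates of a line.

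Nucleotide excision repair (NER) removes bulky DNA lesions such as those made by ultraviolet light. Lesions are found either anywhere in the genome by XPC (global genome NER) or at a stalled RNA polymerase by ERCC6, also called CSB, and ERCC8 (transcription-coupled NER). Both routes then share TFIIH, XPA, RPA and the nucleases, and ERCC5, also called XPG, cuts the damaged strand 3' of the lesion. ERCC6 is therefore specific to the transcription-coupled route, while ERCC5 is common to both. Inherited loss of ERCC6 gives Cockayne syndrome, and inherited loss of ERCC5 gives xeroderma pigmentosum with or without features of Cockayne syndrome.

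Values are TPM, transcript abundances scaled to the same total in every library, and carry no read depth. The 6 libraries summed to between 999365 and 999481 TPM. A log2 difference is the shERCC5 mean minus the shERCC6 mean of log2(TPM + 0.5), so that a positive value means more in shERCC5, and for genes near 1 TPM it understates the ratio. A gene was called when Storey's q from limma was under 0.05 and the fitted fold was above 1.5. Ranges of the 3 shCTRL libraries are given as background. In RNA from whole cultures, fewer cells of a kind and less RNA per cell cannot be told apart.

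Of the 14570 genes, 1097 (7.53%) were higher and 1498 (10.3%) were lower in shERCC5 than in shERCC6, 17.8% in all. The median log2 difference was 0.96 among the higher and -0.77 among the lower genes, so the larger differences lay on the side of shERCC5. More than a 2-fold difference was seen for 513 higher and 372 lower genes, and more than a 4-fold difference for 106 and 31. The 3 libraries of one line did not overlap the 3 of the other for 7213 genes, 49.5% of those tested. The 100 most abundant genes took 44.2% to 46.1% of each shERCC5 library and 40.6% to 42.0% of each shERCC6 library. The median log2 difference of all genes was -0.09 and moved to 0.02 with median-of-ratios scaling, which gave 1433 higher (9.84%) and 979 lower (6.72%) genes. The 1097 and 979 genes were called under both, and which side held more genes depended on the scaling. Counts with this scaling are given below for lists where they differ by more than 1 gene.

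**Figure D1:**
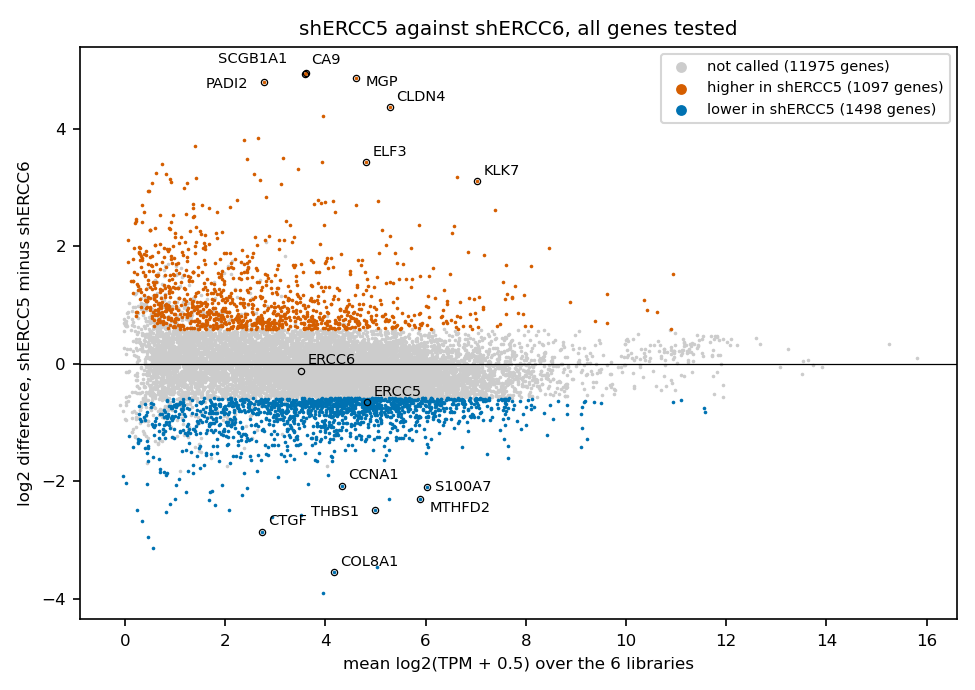
Log2 difference between shERCC5 and shERCC6 (vertical axis) against the mean of log2(TPM + 0.5) over the 6 libraries (horizontal axis), 1 point per gene. Of 14570 genes, the 1097 in orange were called higher and the 1498 in blue lower in shERCC5, and the points far above 0 outnumber those far below it.

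ERCC5 mRNA, from chromosome 13 (102807146 to 102876001, GRCh38), stood at 20.96, 21.2 and 24.7 TPM in the 3 shERCC5 libraries and 36.2, 35.99 and 33.7 TPM in the 3 shERCC6 libraries, with 40.4 to 47.1 TPM in shCTRL. Every shERCC5 library lay below every shERCC6 library, and the log2 difference was -0.65 (standard error 0.0854, q = 0.000435 from limma). With median-of-ratios scaling it was -0.54 and no longer passed the fold threshold. ERCC6 mRNA, from chromosome 10 (49455368 to 49539538), stood at 9.84, 13.1 and 8.97 TPM in shERCC5 and 10.96, 10.2 and 13.3 TPM in shERCC6, with 24.9 to 28.3 TPM in shCTRL. The lines overlapped for ERCC6 (log2 difference -0.12, q = 0.2503). Its mRNA was below shCTRL in all 6 libraries, and it did not separate the line labelled shERCC6 from shERCC5. The other depleted lines lay below shCTRL as well, at 9.64 to 11.99 TPM in shXPA, 6.94 to 13.3 TPM in shXPC and 11.6 to 12.8 TPM in shERCC4. Low ERCC6 mRNA was thus not particular to shERCC5 or shERCC6. The values here are of mRNA only. The paper also showed the knockdowns by Western blot and reported weaker repair of a UV-damaged reporter in every depleted line.

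Most NER genes stayed under the fold threshold, though those of the core were mostly lower in mean in shERCC5. Of 19 genes of the NER core and TFIIH, 0 were called higher and 3 lower, namely ERCC5 itself, PCNA and CCNH. At an unadjusted p under 0.05 alone, 13 of the 19 were lower and 0 higher and 18 lay below a log2 difference of 0, with a median of -0.30 as deposited and -0.18 after median-of-ratios scaling. Over all genes the median was -0.09 as deposited and 0.02 after this scaling. Storey's q from limma was under 0.05 at any fold for 6975 of the 14570 genes, so counts without the fold threshold are to be read against that number. PCNA, the sliding clamp used in replication and in repair synthesis, stood at 108, 96.5 and 104 TPM in shERCC5 and 178, 178 and 187 TPM in shERCC6 (log2 difference -0.81, q = 3.61e-05). CCNH, the cyclin of the TFIIH kinase, stood at 20.5, 19.6 and 22.3 and 36.4, 36.7 and 33.7 TPM (log2 difference -0.76, q = 0.000151). The shERCC5 libraries lay below all shERCC6 libraries for both. Of 7 genes of global genome NER and 8 of transcription-coupled NER, limma with both thresholds called 0, while at an unadjusted p under 0.05 alone 1 and 1 were higher and 3 and 5 lower. DDB1, the adaptor of the UV-DDB complex, came at 101, 97.4 and 98.1 against 140.4, 135 and 138 TPM (log2 difference -0.48, q = 0.000134), and RAD23B, the partner of XPC, at 81.4, 82.4 and 85.99 against 129, 124 and 109.9 TPM (-0.53, q = 0.000468), both under the fold threshold. XPC itself stood at 28.2, 29.02 and 34.4 against 28.8, 32.001 and 28.2 TPM, with overlap.

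**Figure D2:**
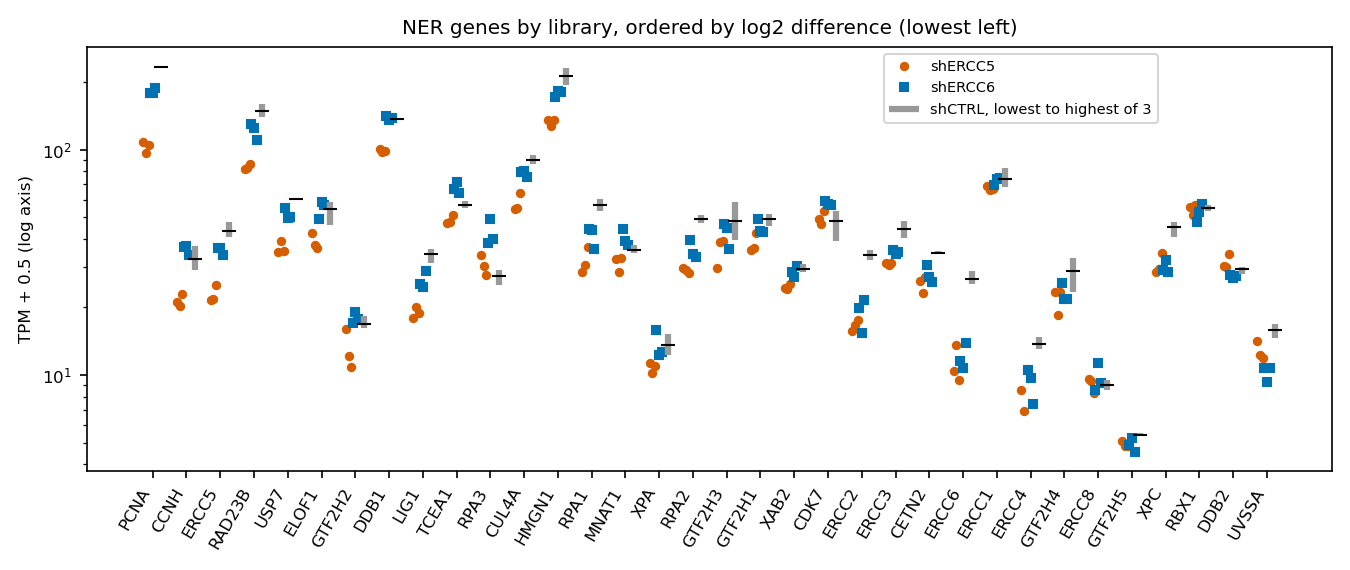
TPM + 0.5 of the NER genes on a log axis, ordered by log2 difference. Orange points are the 3 shERCC5 libraries, blue squares the 3 shERCC6 libraries, and grey bars run from the lowest to the highest shCTRL library with the mean as a black line. PCNA, CCNH and ERCC5 at the left are the 3 called genes, and ERCC6 shows overlapping points below the grey bar.

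Among the genes highest in shERCC5 relative to shERCC6 were a claudin, a secretoglobin, a mucin and an epithelial transcription factor. CLDN4, the tight junction protein claudin-4 (chromosome 7, 73799542 to 73832693), stood at 181, 176 and 174 TPM in shERCC5 and 8.38, 7.97 and 8.02 TPM in shERCC6, against 11.9 to 13.8 TPM in shCTRL. Its log2 difference was 4.37 (standard error 0.0595, q = 3.02e-08). SCGB1A1, a secretoglobin best known from airway club cells, stood at 65.4, 77.5 and 59.7 TPM in shERCC5 and 3.07, 0.9701 and 1.52 TPM in shERCC6 (log2 difference 4.94, q = 1.7e-05), with 0 to 0.698 TPM in shCTRL. For MGP, matrix Gla protein, which restrains calcification, the values were 133, 133 and 128 and 3.63, 3.58 and 4.93 TPM (log2 difference 4.87, q = 5.14e-07). All shERCC5 libraries lay far above all shERCC6 libraries for these genes, and for CLDN4 and MGP the shERCC6 libraries lay below shCTRL. ELF3, an epithelial transcription factor of the ETS family, stood at 95.1, 86.7 and 94.1 TPM in shERCC5 and 8.04, 7.59 and 8.67 TPM in shERCC6 (3.43, q = 5.14e-07), again with shCTRL between the lines at 14.3 to 17.5 TPM. MUC16, a membrane mucin, came at 22.9, 24.1 and 23.3 TPM in shERCC5 against 1.13, 1.19 and 1.18 TPM (3.85), and PADI2, an enzyme that turns arginine in proteins into citrulline, at 32.6, 36.1 and 37.5 against 0.9103, 0.884 and 0.604 TPM (4.79).

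Others of the 15 highest were CCL28, IGFL1, MDK and RAET1L. CCL28, a chemokine of mucosal epithelia, stood at 46.4, 51.5 and 50.6 TPM in shERCC5 and 4.47, 4.62 and 3.45 TPM in shERCC6 (log2 difference 3.43, q = 1.69e-06). IGFL1, a small secreted protein of the IGF-like family, stood at 34.98, 34.1 and 33.4 and 4.004, 2.73 and 2.41 TPM (3.31), and MDK, the growth factor midkine, at 15.7, 18.5 and 18.8 and 0.747, 1.85 and 0.946 TPM (3.48). RAET1L, a ligand of the NKG2D receptor of natural killer cells, came at 17.9, 16.7 and 18.7 against 1.46, 1.36 and 1.52 TPM (3.23). C15orf48 stood at 66.8, 60.8 and 72.2 against 3.75, 2.93 and 2.77 TPM (4.21) and LEMD1 at 19.1, 16.9 and 20.8 against 0.685, 0.574 and 1.58 TPM (3.81). ALB, serum albumin, was the least even, at 10.7, 3.72 and 2.83 TPM in shERCC5 and 0.0485, 0 and 0 TPM in shERCC6. Its first shERCC5 library stood well above the other two, though all exceeded every shERCC6 library.

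Among the genes lowest in shERCC5 relative to shERCC6 were collagens, thrombospondin-1 and the YAP target CTGF. COL8A1, a short-chain collagen (chromosome 3, 99638475 to 99799226), stood at 3.98, 5.31 and 5.15 TPM in shERCC5 and 64.8, 54.9 and 64.8 TPM in shERCC6, a log2 difference of -3.55 (standard error 0.126, q = 1.73e-06). COL12A1, a fibril-associated collagen, stood at 2.13, 2.88 and 2.796 and 21.3, 16.3 and 17.97 TPM (-2.62, q = 1.69e-05). THBS1, the matrix protein thrombospondin-1, stood at 12.8, 13.003 and 13.3 and 81.1, 76.9 and 67.9 TPM (-2.48, q = 1.1e-06). For all 3 genes shERCC5 lay below shERCC6, and both lay below every shCTRL library (148 to 181 TPM for COL8A1, 44.5 to 46.99 for COL12A1 and 280.4 to 331 for THBS1). CTGF, a matrix-associated protein and target of YAP and TEAD, gave 2.38, 1.88 and 1.67 TPM in shERCC5 and 16.5, 18.6 and 16.9 TPM in shERCC6 (-2.86, q = 9.09e-06), against 116 to 126 TPM in shCTRL. TAGLN, the actin-binding protein transgelin, gave 5.65, 5.298 and 6.35 and 20.6, 27.6 and 28.2 TPM (-2.04). AOX1, aldehyde oxidase, gave 3.68, 4.27 and 4.56 and 29.5, 27.5 and 25.2 TPM (-2.58), and HS3ST3A1, which modifies heparan sulfate, gave 0.6801, 1.201 and 1.42 and 6.36, 6.14 and 7.05 TPM (-2.16).

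CCNA1, S100A7, MTHFD2 and the galectin-7 genes were lower in shERCC5 while shERCC6 stood above every shCTRL library. CCNA1, the A-type cyclin best known from the germ line, stood at 10.3, 8.79 and 8.98 TPM in shERCC5 and 40.1, 41.3 and 41.1 TPM in shERCC6 (log2 difference -2.07, q = 3.21e-06), with 3.13 to 5.28 TPM in shCTRL. S100A7, psoriasin, an antimicrobial protein of inflamed epithelium, stood at 25.2, 30.03 and 39.04 and 136, 133 and 134 TPM (-2.10, q = 2.64e-05), with 20.1 to 25.2 TPM in shCTRL. MTHFD2, a mitochondrial enzyme of folate metabolism, stood at 28.2, 23.1 and 26.9 and 134, 129 and 129 TPM (-2.31, q = 1.73e-06), with shCTRL between them at 83.3 to 88.4 TPM. The galectin-7 copies LGALS7B (18.1, 19.1 and 13.96 against 78.8, 77.2 and 101 TPM) and LGALS7 (1.74, 1.56 and 2.18 against 8.196, 14.3 and 9.69 TPM) lie near each other on chromosome 19 and are nearly identical, so the split of reads between them is uncertain. SPRR3, a cornified envelope protein, stood at 0.941, 0.962 and 0.881 against 8.07, 6.86 and 5.19 TPM (-2.32), and MYBPC1, a myosin-binding protein of slow muscle, at 0.649, 0.626 and 2.22 against 7.703, 6.15 and 5.49 TPM (-2.18). RGCC, a regulator of the cell cycle, varied most, at 0.638, 0.416 and 2.88 against 4.43, 14.4 and 6.53 TPM (-2.40, q = 0.00556). Of the 30 genes with the largest differences, 28 were called under all 18 settings tried, ALB under 17 and RGCC under 16.

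**Figure D3:**
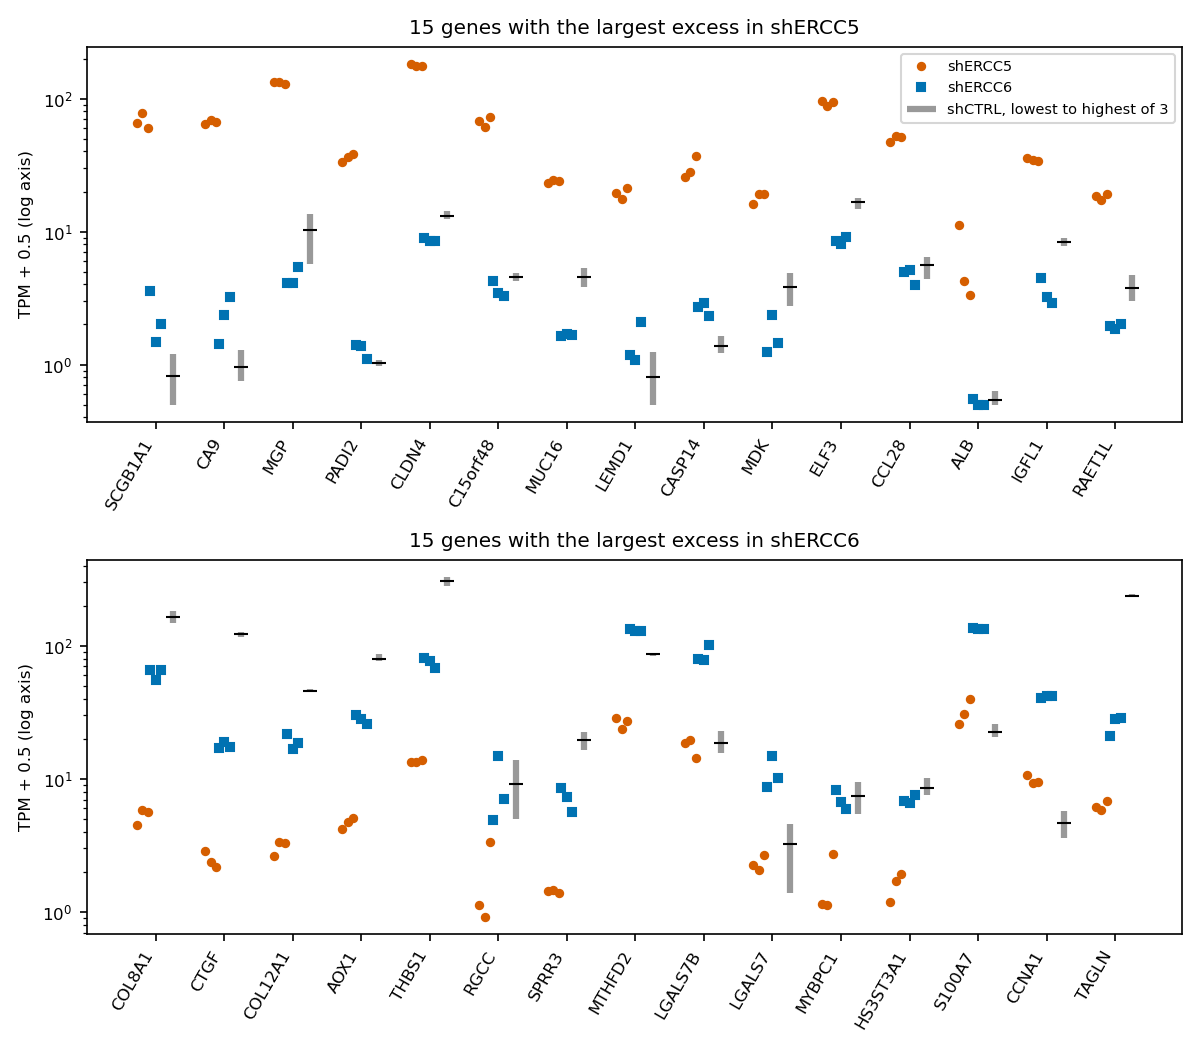
TPM + 0.5 by library on a log axis for the 15 genes with the largest excess in shERCC5 (top) and the 15 with the largest excess in shERCC6 (bottom). Orange points are shERCC5, blue squares shERCC6, and grey bars the range of 3 shCTRL libraries. The shCTRL bars often lie near shERCC6 in the top panel, and in the bottom panel they range from above both lines (COL8A1, TAGLN) to below both (CCNA1).

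Lists of related genes were described by how many members were called, to be read against 7.53% higher and 10.3% lower over all genes. Counts at an unadjusted p under 0.05 alone, here and below, have no such small background. In either direction, 6975 of the 14570 genes had q under 0.05 in limma at any fold. The largest shares lower in shERCC5 were those of mitosis and DNA replication, and the largest shares higher were those of acute phase and complement genes, kallikreins, clade B serpins and histones. Where limma called 0 members in one direction, an unadjusted p under 0.05 alone was met in that direction by 0 genes of mitosis, DNA replication, homologous recombination and the NER core (higher) and of histones (lower), and by 1 to 3 genes of the other such lists from G1 cyclins to cholesterol synthesis described below.

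**Figure D4:**
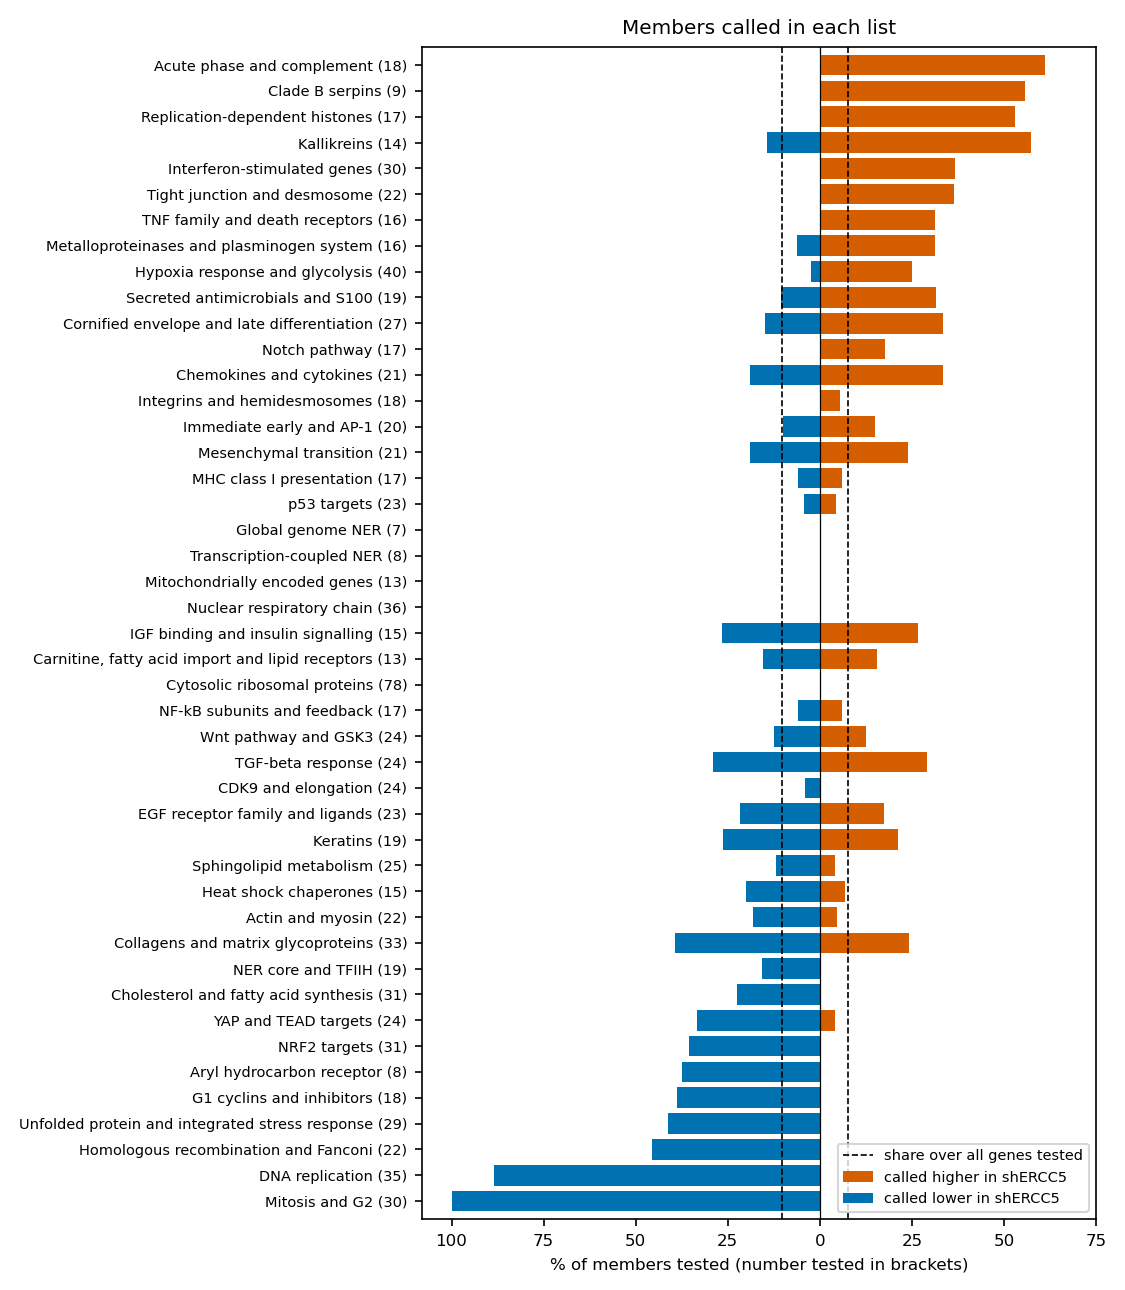
Share of tested members called higher (orange, to the right) and lower (blue, to the left) in shERCC5 for each list, with the number tested in brackets. Lists are ordered by the share called higher minus the share called lower. Dashed lines mark the shares over all genes, 7.53% and 10.3%. All 30 mitosis genes extend to the left, and the ribosomal, mitochondrial and respiratory chain lists have no bar.

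Mitosis and G2 genes were lower in shERCC5 without exception. All 30 tested members were called lower, also with median-of-ratios scaling, and their median log2 difference was -1.25. CCNB1, the cyclin B1 that drives entry into mitosis, stood at 64.2, 60.7 and 67.9 TPM in shERCC5 and 169, 176 and 171 TPM in shERCC6 (log2 difference -1.41, standard error 0.0587, q = 3.42e-06). CDC20, an activator of the anaphase-promoting complex, stood at 40.5, 38.5 and 41.97 and 102, 111 and 111 TPM (-1.41, q = 5.01e-06). PLK1, the polo-like kinase of the mitotic spindle, stood at 29.9, 28.4 and 30.9 and 72.8, 70.4 and 72.97 TPM (-1.27, q = 6.82e-06), and AURKA, the centrosomal Aurora kinase, at 18.9, 18.7 and 17.2 and 53.5, 51.3 and 49.1 TPM (-1.47, q = 7.13e-06). The groups lay apart for each of them. In shCTRL, CCNB1 (139 to 149 TPM) lay between the lines, while CDC20 (132 to 150.03), PLK1 (77.5 to 86.4) and AURKA (53.8 to 55.5) lay above both.

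The promoters of many mitotic genes are known to carry the cell cycle genes homology region (CHR), whose core letters are TTTGAA or TTCGAA. In RefSeq promoters of GRCh38.p14, taken from 250 bases before to 50 after the start, either form was found on either strand for 16 of 24 mitotic members that had a promoter (66.7%) and for 16.6% of all 27305 promoters. This search was chosen after the expression values were seen, and a match is a description of the letters, not of a bound site. TTTGAA reads TTCAAA on the other strand. The 4 stretches of 60 bases below are examples from called genes with a match upstream of the start, at -29 for PLK1, MKI67 and CCNB2 and at -65 for CDC20. They are not the only such members, since KIF11 held a match at -28 and BUB1B at -23. They are written 5' to 3' on the gene's strand, with matches in capitals. MKI67, the gene of the proliferation marker Ki-67, and CCNB2, cyclin B2, were named after their values were seen.
CDC20 (chr1:43358890-43358949, + strand): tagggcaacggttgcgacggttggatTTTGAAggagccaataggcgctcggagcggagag
PLK1 (chr16:23678829-23678888, + strand): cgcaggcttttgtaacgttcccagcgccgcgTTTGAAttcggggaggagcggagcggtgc
MKI67 (chr10:128126424-128126483, - strand): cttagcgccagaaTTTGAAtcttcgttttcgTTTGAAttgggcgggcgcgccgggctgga
CCNB2 (chr15:59105086-59105145, + strand): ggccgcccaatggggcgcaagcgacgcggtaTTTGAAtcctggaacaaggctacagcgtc
MKI67 holds 2 matches in its stretch and had the lowest log2 difference of the list, -1.49, at 10.5, 9.46 and 10.8 TPM in shERCC5 and 31.6, 29.2 and 28.1 TPM in shERCC6. CCNB2 came at 25.3, 23.96 and 27.5 against 57.6, 59.9 and 56.3 TPM (-1.17).

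DNA replication genes were lower in shERCC5 as well, 31 of 35 tested and 27 with median-of-ratios scaling, with 0 higher and a median of -0.84. Their sum was 823 to 894 TPM in shERCC5, 1510 to 1538 TPM in shERCC6 and 2261 to 2289 TPM in shCTRL, so that both lines lay below the control. FEN1, the flap endonuclease of lagging-strand synthesis, stood at 20.8, 17.6 and 17.5 TPM in shERCC5 and 42.9, 45.2 and 44.9 TPM in shERCC6 (log2 difference -1.23, q = 2.9e-05). Of the replicative helicase, MCM6 gave 12.6, 12.9 and 14.4 and 29.7, 29.5 and 26.8 TPM (-1.08) and MCM3 gave 37.2, 35.3 and 39.6 and 70.2, 66.6 and 70.9 TPM (-0.88). Of 22 genes of homologous recombination and the Fanconi pathway, 10 were lower and 0 higher, among them EXO1, an exonuclease that resects DNA ends (10.3, 9.54 and 8.92 against 20.2, 17.8 and 21.5 TPM, -1.01). The libraries of both lines lay apart for all of these. The recombination and Fanconi list summed to 267 to 284 TPM in shERCC5, 400 to 432 TPM in shERCC6 and 548 to 565 TPM in shCTRL. For the list of G1 genes the sums were 615 to 651, 691 to 742 and 1032 to 1100 TPM. Of 18 G1 cyclins, kinases and inhibitors 7 were lower and 0 higher. CDK2, the kinase partner of cyclins E and A, stood at 13.6, 13.2 and 13.4 and 25.9, 26.4 and 22.6 TPM (-0.87, q = 0.000139), and CDK6, a partner of D cyclins, at 12.1, 12.8 and 13.8 and 22.5, 21.1 and 23.1 TPM (-0.76).

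Replication-dependent histone genes went the other way, with 9 of 17 higher and 0 lower in shERCC5. HIST1H2BD stood at 96.4, 102 and 99.8 TPM in shERCC5 and 34.5, 33.4 and 36.8 TPM in shERCC6 (log2 difference 1.495, q = 3.21e-06), and HIST1H2AC at 136, 153 and 152 and 71.9, 61.7 and 80.1 TPM (1.05). For HIST2H2BE the values were 18.1, 17.5 and 19.3 and 8.07, 8.01 and 8.98 TPM (1.09). The libraries did not overlap for these 3 genes. HIST1H2BK, also called higher, stood at 146, 146 and 152 against 99.0, 97.3 and 98.2 TPM (0.59). In shCTRL, HIST1H2BD (65.9 to 77.6 TPM) lay between the lines and HIST1H2BK (234 to 250 TPM) above both. The whole list of 25 genes, tested or not, summed to 544 to 591 TPM in shERCC5 and 308 to 339 TPM in shERCC6. Both lay below shCTRL, at 619 to 650 TPM. Most histone mRNAs end without a poly(A) tail, some of these genes also make tailed mRNA, and near-identical copies make the value of any single histone gene uncertain.

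Genes of the integrated stress response were lower in shERCC5 than in shERCC6, among them transporters and enzymes of amino acid supply. In the list of the unfolded protein and integrated stress responses, 12 of 29 members were lower and 0 higher, and 10 lower and 2 higher with median-of-ratios scaling. The integrated stress response raises the factor ATF4 when amino acids or folding capacity run short, and ATF4 turns on amino acid transporters and synthetic enzymes. SLC7A5, the light chain of the large neutral amino acid transporter, stood at 213, 218 and 244 TPM in shERCC5 and 517, 509 and 537 TPM in shERCC6 (log2 difference -1.21, standard error 0.0632, q = 9.62e-06), with shCTRL between at 390.1 to 409.7 TPM. PSAT1, of serine synthesis, stood at 57.7, 55.1 and 56.3 and 114, 121 and 115 TPM (-1.04, q = 8.81e-06), and TRIB3, a pseudokinase induced by ATF4, at 48.3, 49.4 and 53.7 and 112, 114 and 121 TPM (-1.19, q = 1.11e-05). MTHFD2, above, had the lowest value of the list. No libraries overlapped for these genes. For PSAT1 (61.1 to 69.1 TPM in shCTRL) shERCC5 lay just under the control range and shERCC6 well over it, and for TRIB3 (26.2 to 29.6 TPM) both lines lay over it.

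ASNS, asparagine synthetase, and CHAC1, which breaks down glutathione, are members of the same list, named after their values were seen. ASNS stood at 30.2, 32.1 and 33.2 TPM in shERCC5 and 66.03, 64.7 and 59.2 TPM in shERCC6 (-0.98), and CHAC1 at 2.35, 1.57 and 2.83 and 5.65, 4.84 and 7.57 TPM (-1.25). Both hold, on one strand or the other, the letters TGATGNAA of the element that ATF4 is known to bind with C/EBP partners. This search was also chosen after the values were seen. It found the letters in 3 of 11 called members with a promoter (27.3%), in 4 of 26 members called or not, and in 3.67% of all promoters. The match lies 68 bases before the start in ASNS and 209 before it in CHAC1, and is in capitals below.
ASNS (chr7:97872443-97872502, - strand): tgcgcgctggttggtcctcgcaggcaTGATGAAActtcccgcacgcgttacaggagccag
CHAC1 (chr15:40953236-40953295, + strand): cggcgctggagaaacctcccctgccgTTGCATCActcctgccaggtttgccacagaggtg
Both genes were lower in every shERCC5 library than in any shERCC6 library. Among 15 heat shock chaperones, 3 were lower and 1 higher. HSP90AA1, the inducible cytosolic HSP90, stood at 349, 344 and 371 against 606, 589 and 546 TPM (-0.71, q = 6.49e-05) and DNAJA1, a co-chaperone, at 86.8, 86.2 and 85.9 against 139, 131 and 129 TPM (-0.62), which lost its call with median-of-ratios scaling (-0.51).

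Some genes of the response to low oxygen were higher in shERCC5, while most glycolytic enzymes were not called. Of 40 members of the list 10 were higher and 1, STC2, lower, and 14 were higher with median-of-ratios scaling. CA9, carbonic anhydrase IX, a surface enzyme that balances pH (chromosome 9, 35673856 to 35681159), stood at 64.2, 68.95 and 65.7 TPM in shERCC5 and 0.916, 1.86 and 2.696 TPM in shERCC6 (log2 difference 4.92, standard error 0.265, q = 1.15e-05), with 0.2502 to 0.792 TPM in shCTRL. NDRG1, a stress-induced cytosolic protein, stood at 277, 291 and 321 and 128, 125 and 139 TPM (1.18, q = 1.7e-05). P4HA1, a subunit of collagen prolyl hydroxylase, gave 34.6, 35.4 and 37.4 and 18.3, 19.7 and 17.4 TPM (0.94, q = 5.95e-05), and ALDOC, a glycolytic aldolase, gave 41.97, 40.1 and 47.5 and 18.3, 15.2 and 20.3 TPM (1.25, q = 0.0001096). Every shERCC5 library was above every shERCC6 library for these genes. The shCTRL libraries lay below both lines for NDRG1 and ALDOC and between them for P4HA1 (27.3 to 28.9 TPM). STC2, the glycoprotein stanniocalcin-2, stood at 16.1, 20.3 and 13.3 TPM in shERCC5 and 40.3, 41.8 and 39.7 TPM in shERCC6 (-1.29).

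Hypoxia-inducible factors are known to bind the letters ACGTG or GCGTG, here searched on both strands. Of the 10 genes higher in shERCC5, 7 had a RefSeq promoter, and 6 of these (85.7%) held such letters, as did 28 of the 35 members of the list that had a promoter, called or not, and 48.4% of all promoters. This search too was chosen after the values were seen. ACGTG also lies within CACGTG, the site of many other factors, so that a match cannot be ascribed to one family. The stretches of the gene with the largest difference and of P4HA1 are given with the matches in capitals, 18 and 86 bases before the start, where ACGTG is read from the other strand.
CA9 (chr9:35673868-35673927, + strand): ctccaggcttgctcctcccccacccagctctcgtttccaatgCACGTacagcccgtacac
P4HA1 (chr10:73096919-73096978, - strand): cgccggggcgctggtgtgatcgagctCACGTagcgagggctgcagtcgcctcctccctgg

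Epithelial junction genes were higher in shERCC5. Of 22 genes of tight junctions and desmosomes, 8 were higher and 0 lower, and 12 were higher with median-of-ratios scaling, with a median log2 difference of 0.53. Besides CLDN4, OCLN, the tight junction protein occludin, stood at 36.5, 37.5 and 37.6 TPM in shERCC5 and 9.89, 9.96 and 9.74 TPM in shERCC6 (log2 difference 1.86, standard error 0.0706, q = 2.35e-06). CLDN7 stood at 363, 347 and 329.6 and 129.6, 134 and 152 TPM (1.32, q = 1.24e-05), and the desmosomal cadherin DSG3 at 190.2, 196 and 200.4 and 107, 103 and 97.1 TPM (0.93, q = 1.7e-05). For OCLN, CLDN7 and DSG3, shCTRL lay below both lines (5.13 to 5.97, 64.2 to 77.5 and 41.6 to 45.8 TPM). In the list of epithelial and mesenchymal identity, 5 of 21 genes were higher and 4 lower (7 and 4 with median-of-ratios scaling). The higher ones with the smallest q were epithelial, with CDH1, E-cadherin, at 104, 105 and 111 against 57.2, 45.9 and 44.3 TPM (1.12) and EHF, an epithelial ETS factor, at 109.7, 102 and 125 against 58.5, 60.3 and 58.2 TPM (0.92), together with ELF3. The 4 lower members, named after their values were seen, were the cadherins CDH2 (N-cadherin) and CDH4 and the transcription factors TWIST2 and FOXC2, with log2 differences of -1.40, -1.47, -0.88 and -1.05. ZEB2, a repressor of epithelial genes, was at 4.86, 4.49 and 4.81 against 3.36, 2.62 and 2.95 TPM and was called higher (0.59), against the direction of these 4. The mesenchymal filament gene VIM, counted below among basal markers, was not called. It too was higher without overlap, at 523, 539 and 623 TPM in shERCC5 against 484, 487 and 516 TPM in shERCC6.

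**Figure D5:**
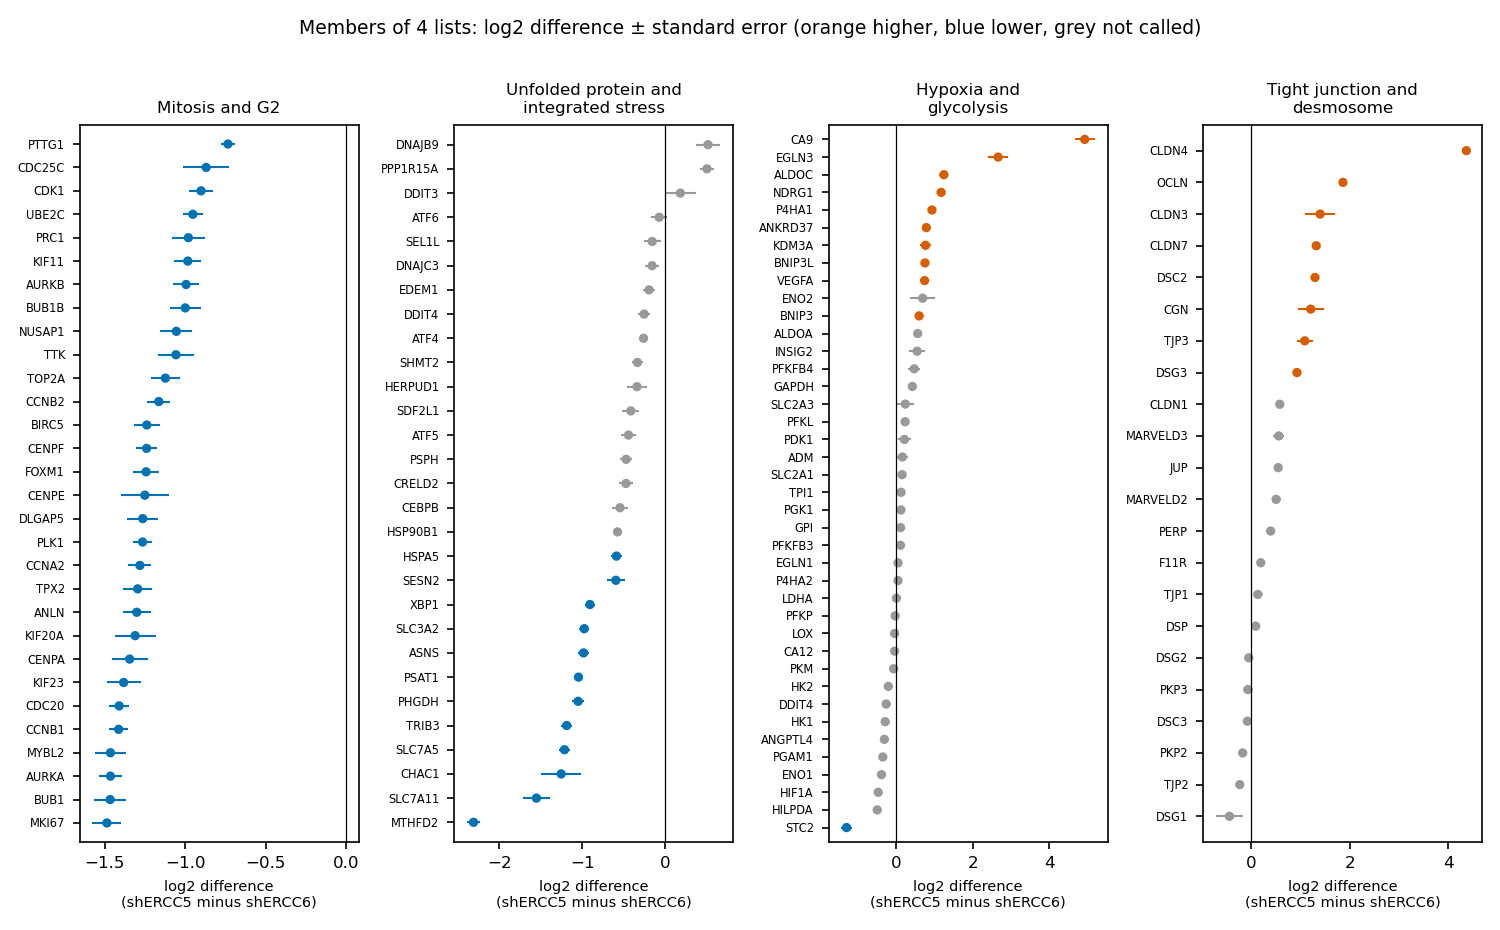
Log2 difference of every tested member of 4 lists, with bars of 1 standard error. Orange points were called higher and blue points lower in shERCC5, and grey points were not called. All mitosis genes lie left of 0, the lowest stress response member is MTHFD2, and CA9 and CLDN4 stand far to the right of the other members of their lists.

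Keratins changed in both directions, 4 of 19 higher and 5 lower. KRT15, a keratin of basal cells with progenitor properties, stood at 715, 714 and 676 TPM in shERCC5 and 175, 183 and 181 TPM in shERCC6 (log2 difference 1.96, q = 5.14e-07), and KRT8, a simple epithelial keratin, at 273, 270.1 and 302 and 121, 133 and 141 TPM (1.10, q = 2.65e-05). KRT5 and KRT14, the keratin pair of basal cells, were lower, at 2272, 2209 and 2415 against 3865, 4146 and 4177 TPM for KRT5 (-0.82, q = 4.82e-05) and 2269, 2239 and 2478 against 3892, 3783 and 4128 TPM for KRT14 (-0.76, q = 8.04e-05). No libraries overlapped for these 4 keratins. The control libraries held 31.3 to 41.2 TPM of KRT15 and 678 to 764 TPM of KRT14, below both lines.

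Genes of late squamous differentiation and their proteases were often higher in shERCC5. In the cornified envelope list 9 of 27 were higher and 4 lower, and 11 were higher with median-of-ratios scaling. TGM1, the transglutaminase that cross-links the envelope, stood at 149.5, 159 and 147 TPM in shERCC5 and 49.7, 44.8 and 64.7 TPM in shERCC6 (log2 difference 1.52, q = 6.23e-05). CASP14, a caspase of the upper epidermis, stood at 25.02, 27.5 and 36.5 and 2.196, 2.42 and 1.805 TPM (3.504, q = 7.1e-06), and PPL, the plakin periplakin, at 58.5, 57.3 and 62.3 and 28.8, 30.4 and 32.96 TPM (0.94). SPRR2D stood at 67.01, 62.7 and 57.3 and 7.59, 11.1 and 9.05 TPM (2.70), a value that is uncertain because its family has near-identical copies. The 4 lower members were SPRR3, given above, and KRTDAP, CALML3 and ALOXE3, named after their values were seen, with log2 differences of -1.25, -0.79 and -0.70. The list thus did not move as a whole.

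Kallikreins are secreted serine proteases, coded in a cluster on chromosome 19, that shed surface cells in skin. Of 14 kallikreins and their inhibitors, 8 were higher and 2, KLK9 and the inhibitor SPINK6, lower. KLK7 (50976482 to 50984099) stood at 364, 369 and 418 TPM in shERCC5 and 47.01, 44.2 and 41.4 TPM in shERCC6 (log2 difference 3.10, standard error 0.0747, q = 5.14e-07). KLK10 (51012739 to 51020175) stood at 205, 217 and 245 and 55.7, 59.1 and 62.9 TPM (1.90), and KLK14 (51077495 to 51084245) at 20.8, 22.4 and 22.1 and 5.04, 3.52 and 3.22 TPM (2.35). SPINK5, the inhibitor of kallikreins from another chromosome, was higher as well, at 34.5, 36.8 and 33.99 and 7.01, 6.96 and 5.43 TPM (2.36). The lines lay apart for all 4 genes, and KLK7 in shCTRL (69.96 to 73.9 TPM) lay between the lines. KLK9, from the same cluster, went from 5.15, 4.93 and 6.21 TPM in shERCC6 to 2.77, 2.85 and 2.13 TPM in shERCC5 (-0.95). Of 9 clade B serpins, which inhibit proteases inside cells and at surfaces, 5 were higher and 0 lower. SERPINB2, plasminogen activator inhibitor 2, stood at 21.5, 23.5 and 23.97 against 9.62, 8.66 and 8.92 TPM (1.30, q = 2.94e-05).

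Matrix genes were lower more often than higher in shERCC5, and the members with the smallest q were all lower. Of 33 collagens and matrix glycoproteins 13 were lower and 8 higher, or 11 and 8 with median-of-ratios scaling. FN1, fibronectin, stood at 19.6, 21.4 and 22.6 TPM in shERCC5 and 63.7, 62.3 and 63.1 TPM in shERCC6 (log2 difference -1.55, q = 6.34e-06). Both sets lay far below shCTRL (728 to 793 TPM), shERCC5 the further. The 8 higher members lay between a log2 difference of 0.74 for COL6A1 and 2.55 for COL13A1. Of 24 YAP and TEAD targets, genes that answer to cell shape and tension, 8 were lower and 1, ARHGEF17, higher, with a median of -0.49. CYR61, a matrix-associated protein like CTGF, stood at 7.62, 5.92 and 5.88 and 16.7, 15.99 and 16.4 TPM (-1.28, q = 0.000111), and CRIM1, a membrane protein that binds growth factors, at 31.8, 26.4 and 30.6 and 50.03, 51.9 and 49.8 TPM (-0.77). TGFB2, a TGF-beta ligand, stood at 0.284, 0.384 and 0.287 and 5.22, 3.13 and 3.295 TPM (-2.39). Each of these was also lower in shERCC6 than in any shCTRL library.

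The TGF-beta list split evenly, 7 of 24 higher and 7 lower. PMEPA1, a TGF-beta target that inhibits the pathway, was lower, at 8.26, 7.91 and 8.08 TPM in shERCC5 and 28.1, 30.4 and 35.8 TPM in shERCC6 (log2 difference -1.89, q = 1.29e-05). Genes of the ID family, known targets of the BMP branch, were higher, with ID1 at 319.6, 334 and 338 and 180.3, 177 and 192 TPM (0.85, q = 1.97e-05) and ID3 at 122, 122 and 124 and 56.9, 61.05 and 63.4 TPM (1.01, q = 1.37e-05). ID2, named after its values were seen, stood at 28.3, 23.03 and 22.9 and 3.6996, 2.32 and 1.79 TPM (3.06). The libraries did not overlap for PMEPA1, ID1, ID2 and ID3, while SMAD7 (2.58, 4.62 and 2.21 against 4.52, 4.405 and 5.38 TPM) was called lower with overlap. In the list of metalloproteinases and the plasminogen system, 5 of 16 were higher (7 with median-of-ratios scaling) and 1 lower. PLAU, the protease urokinase, and PLAUR, its receptor, were higher, PLAU at 65.8, 63.7 and 67.4 and 23.6, 25.8 and 25.3 TPM (1.38, q = 6.64e-06) and PLAUR at 77.9, 86.7 and 87.2 and 27.7, 24.6 and 24.1 TPM (1.70, q = 6.64e-06). Of 22 actin and myosin genes 4 were lower and 1 higher, the last being CNN3, calponin 3, at 36.6, 36.9 and 39.6 against 18.6, 19.5 and 17.2 TPM (1.02).

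NRF2 is a factor that turns on genes of redox defence. Of 31 known NRF2 targets 11 were lower in shERCC5 and 0 higher, or 7 lower with median-of-ratios scaling. NQO1, a quinone reductase, stood at 117, 116 and 127 TPM in shERCC5 and 244, 283 and 262 TPM in shERCC6 (log2 difference -1.12, q = 1.92e-05). SRXN1, sulfiredoxin, stood at 27.4, 28.9 and 27.7 and 47.9, 51.7 and 49.8 TPM (-0.82, q = 4.82e-05), and AKR1C2, an aldo-keto reductase, at 90.8, 81.1 and 91.1 and 253, 256 and 251 TPM (-1.53), with its value uncertain because of the near-identical AKR1C1. These libraries did not overlap, and shCTRL lay above both lines for NQO1 (642 to 689 TPM), SRXN1 (96.7 to 105) and AKR1C2 (613 to 669). Of 8 genes of the aryl hydrocarbon receptor pathway 3 were lower, NQO1 among them, with CYP1B1, a cytochrome P450, at 27.3, 27.5 and 27.9 and 56.2, 58.3 and 55.3 TPM (-1.02, q = 1.35e-05) and ALDH3A1, an aldehyde dehydrogenase, at 23.3, 22.3 and 22.7 and 52.4, 54.9 and 64.1 TPM (-1.30). In cholesterol and fatty acid synthesis 7 of 31 were lower and 0 higher, and 5 with median-of-ratios scaling and 3 with quantile normalization were lower. ACLY, which makes acetyl-CoA from citrate in the cytosol, stood at 138, 139 and 149.9 and 259, 254 and 262 TPM (-0.86, q = 1.8e-05), and FDFT1, squalene synthase, at 269.5, 278 and 289 and 441, 442 and 479 TPM (-0.70). For these last genes shCTRL lay between the lines, at 209.7 to 237 TPM for ACLY and 331 to 347 TPM for FDFT1.

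Of 30 interferon-stimulated genes 11 were higher in shERCC5 and 0 lower, and 13 were higher with median-of-ratios scaling. IFIT1, which binds foreign RNA, stood at 12.2, 10.6 and 11.1 TPM in shERCC5 and 4.04, 3.45 and 3.34 TPM in shERCC6 (log2 difference 1.52, q = 6.95e-05), with 2.31 to 3.15 TPM in shCTRL. IRF9 and STAT2, subunits of the factor that answers to type I interferon, stood at 32.3, 34.8 and 29.3 against 15.3, 16.1 and 16.6 TPM (0.98) and 48.97, 51.1 and 50.2 against 33.7, 32.7 and 30.4 TPM (0.63). IFI6, a mitochondrial protein induced by interferon, was at 21.04, 21.7 and 19.4 against 12.5, 13.7 and 13.3 TPM (0.63). All shERCC5 libraries lay above all shERCC6 libraries for these 4 genes, and in shCTRL STAT2 was at 48.9 to 51.1 TPM, level with shERCC5. Of 17 genes of antigen presentation by MHC class I, 1 was called higher and 1 lower, while at an unadjusted p under 0.05 alone 8 were higher and 4 lower. Their sum was 2855 to 3039 TPM in shERCC5 and 2390.2 to 2544 TPM in shERCC6, against 3389 to 3600.0 TPM in shCTRL. HLA-F was higher (0.81), and HLA-E, a ligand of NKG2A on natural killer cells, stood at 99.6, 99.1 and 104 and 64.02, 69.7 and 68.2 TPM (0.58, q = 0.000126), just under the fold threshold as deposited and called higher with median-of-ratios scaling (0.70) and quantile normalization (0.77). Genes of the HLA family are alike in sequence, which makes the split of reads between them uncertain. TAP2, a subunit of the peptide transporter, was called lower at 25.5, 20.2 and 22.9 against 44.1, 51.5 and 46.4 TPM (-1.04, q = 0.000129), and B2M, the shared light chain, stood at 1843, 1769.8 and 1883 and 1371, 1414 and 1405 TPM (0.39), under the fold threshold.

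Acute phase and complement genes were higher in shERCC5 for 11 of 18 members, and 0 were lower, with a median of 0.79. SAA1, serum amyloid A, stood at 1302, 1179 and 1116 TPM in shERCC5 and 457, 546 and 574 TPM in shERCC6 (log2 difference 1.19, q = 5.96e-05), a value shared in part with its near-identical copy SAA2. CFI, a regulator of complement, stood at 27.8, 22.9 and 21.1 against 5.29, 7.67 and 7.31 TPM (1.76), and LCN2, a protein that withholds iron from bacteria, at 19.6, 22.8 and 19.1 against 9.22, 7.36 and 7.36 TPM (1.31, q = 0.000107). Of the genes named here, shCTRL lay below both lines for SAA1 (155 to 211 TPM) and CFI (1.44 to 1.67 TPM). Of 19 secreted antimicrobials and S100 proteins 6 were higher and 2 lower, or 8 and 1 with median-of-ratios scaling. The protease inhibitors SLPI and PI3 were the highest by q, with SLPI at 3268, 3226 and 3538 and 1202, 1103 and 1184 TPM (1.52, q = 3.42e-06) and PI3 (elafin) at 405, 412 and 422 and 62.7, 73.4 and 65.3 TPM (2.62, q = 5.14e-07). The lower members were S100A7, given above, and S100A2 (1909.9, 1499 and 1346 against 1835, 3134 and 2575 TPM), whose libraries overlapped and whose call was lost with median-of-ratios scaling.

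Chemokines and cytokines split, 7 of 21 higher and 4 lower. Beside CCL28, IL32 stood at 35.2, 35.5 and 44.1 TPM in shERCC5 and 5.201, 5.62 and 5.15 TPM in shERCC6 (log2 difference 2.73, q = 3.21e-06), IL8, which draws neutrophils, at 43.3, 43.1 and 48.6 and 19.5, 16.8 and 16.7 TPM (1.33, q = 2.65e-05), and IL1RN, the antagonist of interleukin-1, at 23.3, 24.98 and 26.2 and 6.78, 8.5995 and 9.08 TPM (1.56). For IL32, shERCC6 lay below shCTRL (26.1 to 29.4 TPM), and for IL8 and IL1RN shCTRL lay below both lines. The lower members, named after their values were seen, were IL1A (interleukin-1 alpha), the receptor gene IL1RL1, IL6 and CSF3, with IL1A at 6.25, 6.95 and 6.51 against 16.2, 16.8 and 15.3 TPM (-1.24) and IL1RL1 at 4.33, 4.33 and 5.09 against 15.9, 13.7 and 13.01 TPM (-1.53). The agonist IL1A and the antagonist IL1RN of one receptor thus differed in opposite directions. IL36G was at 2.81, 1.72 and 2.16 TPM in shERCC5 and is listed at 0 in all 3 shERCC6 libraries.

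Growth factor genes also split. Of 23 members of the EGF receptor family and its ligands, 4 were higher and 5 lower, or 4 and 3 with median-of-ratios scaling. AREG, the ligand amphiregulin, stood at 162, 163 and 165 TPM in shERCC5 and 346, 346 and 365 TPM in shERCC6 (log2 difference -1.10, standard error 0.0469, q = 3.68e-06), while TGFA, another ligand of the same receptor, stood at 29.2, 25.8 and 30.1 and 14.9, 15.1 and 15.1 TPM (0.89, q = 0.000105). ERBB3, a receptor of neuregulins, came at 29.8, 31.8 and 24.7 and 9.37, 10.1 and 7.41 TPM (1.63). The libraries lay apart for all 3 genes, with AREG in shCTRL between the lines (229.5 to 249 TPM). In the IGF list 4 of 15 were higher and 4 lower, with IGFBP7, an IGF-binding protein, at 15.9, 15.03 and 15.1 and 34.2, 37.5 and 39.05 TPM (-1.24) and IGFL2 at 16.1, 19.2 and 15.3 and 5.14, 5.63 and 7.43 TPM (1.41). Among carnitine and lipid genes 2 of 13 were higher and 2 lower. TREM2, a lipid receptor best known from myeloid cells, stood at 7.23, 8.05 and 6.79 and 23.7, 22.05 and 26.03 TPM (-1.64, q = 2.28e-05), and CPT1A, which brings fatty acids into mitochondria, at 18.8, 18.98 and 20.5 and 43.9, 41.2 and 39.8 TPM (-1.08). BBOX1, the last enzyme of carnitine synthesis, was on the other side, at 30.9, 29.7 and 29.2 and 13.3, 16.1 and 15.5 TPM (0.98).

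Core genes of translation and respiration were not called. Of 78 cytosolic ribosomal protein genes 0 passed both thresholds in limma, though at an unadjusted p under 0.05 alone 44 were higher and 1 lower, 70 lay above a log2 difference of 0 and their sum ran from 175588 to 185686 TPM in shERCC5 and from 142197 to 158329 TPM in shERCC6, against 104406 to 114864 TPM in shCTRL. With median-of-ratios scaling 4 were higher. RPL12, named as the one with the smallest q, stood at 4106, 4013 and 4296 and 2931, 2949 and 3022 TPM (0.48, q = 0.000295). These sums move with the share of the 100 most abundant genes given above, and their part in the shift of all genes was not tested. Of 13 mitochondrially encoded and 36 nuclear respiratory chain genes, 0 were called, with medians of -0.14 and -0.26, while at an unadjusted p under 0.05 alone 1 and 1 were higher and 2 and 22 lower.

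Both lines held the markers of basal mammary epithelium. All 10 basal markers passed the filter, and KRT5 and KRT14 were called lower in shERCC5. The others were not called and split. TP63, EGFR, ITGA6 and LAMA3 were lower without overlap, CDH3, ITGB4 and VIM were higher without overlap, and KRT17 overlapped. CDH3 stood at 158, 154 and 160 against 107, 110 and 111 TPM (0.52) and was called higher with median-of-ratios scaling. The sum of the 10, mostly keratins, was 7031 to 7823 TPM in shERCC5, 10515 to 11146 TPM in shERCC6 and 6073 to 6393 TPM in shCTRL. Of luminal markers 4 of 9 passed the filter, with FOXA1 and KRT8 called higher. KRT18 was not called but went the other way, at 206, 196 and 230 TPM in shERCC5 and 249, 246 and 250 TPM in shERCC6. GATA3 overlapped between the lines, while ESR1, ELF5, KIT and KRT19 stayed under 1 TPM in all 6 libraries. The luminal sum, mostly KRT8 and KRT18, was 494 to 561 TPM in shERCC5 and 386 to 410 TPM in shERCC6. Of other cell types, the fibroblast markers summed to 105 to 113 TPM in shERCC5 and 116 to 129 TPM in shERCC6 with COL1A2, PDGFRB and LUM under 1 TPM, the endothelial markers to 9.10 to 9.87 and 6.62 to 10.1 TPM, and the blood markers to 22.8 to 28.4 and 19.0 to 20.5 TPM. Of these, COL1A1 (0.81), KDR (1.22) and CD68 (0.74) were called higher and FAP (-1.02) lower. CD68, of macrophages, stood at 14.1, 17.5 and 16.8 TPM in shERCC5 and 11.7, 7.98 and 8.92 TPM in shERCC6, and FAP, of fibroblasts, at 9.02, 13.3 and 9.59 and 23.4, 22.2 and 19.7 TPM. DCN made up most of the fibroblast sum, at 88.4, 86.4 and 82.5 TPM in shERCC5 and 97.6, 89.0 and 89.0 TPM in shERCC6. In shCTRL it was at 202 to 215 TPM. All 4 adipocyte markers stayed under 1 TPM. The part of these markers in the differences above was not tested.

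The control libraries place the called genes. Of the 1097 genes higher in shERCC5, the shCTRL mean lay below both lines for 360, between them for 553 and above both for 184. Of the 1498 lower genes, it lay above both lines for 958, between them for 452 and below both for 88. Of the 553 and 452 genes with shCTRL between the lines, shCTRL was nearer to shERCC5 for 223 and 144. These counts describe positions and carry no test, since shCTRL was not part of the fit.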

How the data were processed

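The deposited values are TPM per gene symbol that the authors obtained with kallisto on hg38, version 0.43.1 by the submitters' notes and a later one by the paper's methods. TPM keep no read depth, so counting intervals could not be had and precision rests on 3 replicates per line. After log2(TPM + 0.5), genes reaching 1 TPM in 3 or more of the 6 libraries were compared with limma 3.58.1 in R 4.3.3, with moderated variances that follow a trend on the mean and 4 residual degrees of freedom. Storey's q took lambda 0.5, and since it put the share of unchanged genes at 0.399, a q can lie below its p. Python 3.11.15 and matplotlib 3.10.9 drew the figures.

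The comparison, the members and the lists were chosen with earlier results of these data known, so lists are described by counts and medians and not tested. UVSSA had been entered under both NER routes and was kept under the transcription-coupled one. The genes named are the NER genes, the 15 highest and 15 lowest log2 differences among called genes without overlap and with a mean of at least 5 TPM in either line (clone-named entries left out), and the 4 members of each list with the smallest q, called or not. Some genes that the rule takes are not reported here. Genes outside this rule are said to be named after their values were seen, or are the ends of a stated range and members of a small count. Symbols were matched to GENCODE release 29 for positions (17859 of 22031) and to RefSeq for promoters. Alternatives were other pseudocounts, filters and scalings, a fit of 18 libraries, Benjamini-Hochberg adjustment, testing against the fold threshold itself, unmoderated variances, a replicate block and leaving out each library.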

Additional observations from a re-analysis of the deposited data

How the results depend on the processing

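Against 1097 higher and 1498 lower genes, the fold threshold inside the test gave 234 and 241, a filter of 5 TPM gave 630 higher and 1226 lower, and median-of-ratios scaling gave 1433 higher and 979 lower. The other settings stayed within 1.5 times of both counts, leaving out each library gave 957 to 1118 higher and 1431 to 1588 lower genes, and no called gene turned under any setting. The log2 difference of ERCC5 fell short of the call at -0.54 (q = 0.000813) with median-of-ratios scaling, at -0.51 (q = 0.00115) with quantile normalization and at -0.65 (q = 1.0) with the fold inside the test, and leaving out each library gave -0.73 to -0.61. For ERCC6, which was called under no setting, leaving out each library gave -0.27 to -0.01. Deviations of same-numbered libraries from their line means correlated at 0.0116, -0.0860 and -0.0443, so the replicate numbers were not taken as pairs, and a replicate block gave 1071 higher and 1496 lower genes (ERCC5 q = 0.00332). Of 414 genes followed, 27 lost their call with median-of-ratios scaling, 30 with quantile normalization and 185 with the fold inside the test. Depth is unknown, so no limit of detection can be given for genes listed at 0.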

Other observations

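In the Notch list 3 of 17 genes were higher in shERCC5 and 0 lower (5 higher and 2 lower at an unadjusted p under 0.05 alone). HES2, a repressor of the HES family, stood at 50.1, 50.999 and 47.4 TPM in shERCC5 and 24.99, 29.4 and 34.3 TPM in shERCC6 (log2 difference 0.74, q = 0.000818 from limma), and the receptor gene NOTCH3 at 15.7, 16.6 and 16.6 and 10.1, 9.54 and 12.1 TPM (0.61). MFNG, a glycosyltransferase that modifies Notch, stood at 4.85, 6.33 and 5.45 and 3.82, 2.43 and 4.16 TPM (0.63) and lost its call under several settings. Of 16 genes of the TNF family 5 were higher and 0 lower, though 6 were higher and 6 lower at an unadjusted p under 0.05 alone. CD70, the ligand of CD27, stood at 268, 257 and 264 and 139.9, 139 and 157 TPM (0.85, q = 3.55e-05), TNFSF9, the ligand of 4-1BB, at 63.8, 59.6 and 60.01 and 34.99, 37.95 and 37.6 TPM (0.72), and TNFSF10 (TRAIL) at 10.95, 7.93 and 9.996 and 4.97, 4.54 and 3.54 TPM (1.06). The libraries did not overlap for these 3 ligands, and shCTRL lay below both lines for CD70 (38.3 to 43.7 TPM). In the Wnt list 3 of 24 were higher and 3 lower, with DKK1, a secreted Wnt antagonist, at 22.8, 28.3 and 33.96 and 64.9, 63.1 and 76.9 TPM (-1.27, q = 0.000249) against 286 to 317 TPM in shCTRL. Of 20 immediate early genes 3 were higher and 2 lower, with EGR1 at 61.9, 62.8 and 66.3 and 39.6, 39.2 and 41.9 TPM (0.66) and FOSL1, an AP-1 subunit, at 18.1, 17.8 and 19.4 and 33.1, 31.2 and 38.4 TPM (-0.87).

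Of 23 p53 targets, GADD45A, a growth arrest gene, was higher at 97.1, 90.03 and 83.9 against 40.9, 51.4 and 44.6 TPM (0.98, q = 0.000121), and SESN2 was lower as deposited (-0.59) and not called with median-of-ratios scaling (-0.48). Of 17 NF-kB subunits and feedback genes ICAM1 was higher (0.75) and NFKBIB lower (-0.60). In sphingolipid metabolism 1 of 25 was higher and 3 lower, with UGCG, which makes glucosylceramide, at 27.4, 27.3 and 29.9 against 17.99, 18.7 and 17.3 TPM (0.63) and S1PR3, a receptor for sphingosine-1-phosphate, at 1.79, 1.81 and 2.41 against 5.03, 4.96 and 5.63 TPM (-1.20). Of 18 integrin and hemidesmosome genes 1, ITGA1, was higher and 0 lower (7 higher and 8 lower at an unadjusted p under 0.05 alone). Of 24 genes of CDK9 and elongation 1, SSRP1, a subunit of the histone chaperone FACT, was lower at 72.1, 75.1 and 76.6 against 127, 127 and 125 TPM (-0.75). SSRP1 lost its call with quantile normalization, and at an unadjusted p under 0.05 alone 1 member of its list was higher and 13 were lower.

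The other repair-deficient lines, which were in no test here, held genes of this comparison at unlike levels. CLDN4 stood at 82.6 to 88.5 TPM in shXPC, 11.9 to 13.8 TPM in shXPA and 2.49 to 7.63 TPM in shERCC4, so that shXPC came nearest to shERCC5. MGP stood at 102 to 114, 15.7 to 32.002 and 2.397 to 10.6 TPM in the same lines, and CA9 at 15.4 to 17.1, 6.898 to 7.94 and 1.2003 to 2.84 TPM. Of the 15 highest genes, CASP14, ELF3 and IGFL1 were higher in every shXPC library than in any shERCC5 library. ELF3 stood at 97.3 to 112 TPM in shXPC, 53.6 to 64.3 TPM in shXPA and 2.21 to 6.65 TPM in shERCC4. For CCL28, LEMD1 and ALB shXPC and shERCC5 overlapped, and the remaining ones of the 15 were lower in shXPC. S100A7, higher in shERCC6 than in shERCC5, reached 760.00 to 936 TPM in shXPC and 721 to 902 TPM in shXPA, far above both lines, and 1.94 to 7.41 TPM in shERCC4. CCNA1 stood at 4.88 to 6.97, 1.67 to 2.402 and 5.48 to 9.28 TPM in shXPC, shXPA and shERCC4, below every shERCC6 library.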
